A study of Mus musculus with 3 samples.

Results

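The genes of glucose use were described in mouse macrophages. The set holds 37 genes, picked by name from the 55536 genes of the GENCODE M21 annotation: 2 glucose transporter genes, 17 genes of glycolysis, 4 genes of lactate formation and transport, 7 genes of the pentose phosphate pathway, 3 genes of the pyruvate dehydrogenase step and 4 genes of oxygen sensing. All 37 names were found. The cells were bone marrow-derived macrophages of C57BL/6J mice, primary cells differentiated in culture from mouse marrow, treated with lipid A at 100 ng/ml for 50 min. Lipid A is the membrane anchor of bacterial lipopolysaccharide and is sensed by Toll-like receptor 4. RNA of the cytosolic fraction, freed of ribosomal RNA, was sequenced in 3 libraries of this 1 group, labelled as biological replicates 1, 2 and 3. The labels give all 3 the same donor label and do not say whether they came from separate animals or cultures, so a p-value here covers no more than the variation among these samples, and that variation may be technical. No untreated sample, other time or other oxygen level was analysed here, and none of the values is a response to lipid A or to hypoxia.

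Glycolysis splits glucose into pyruvate in the cytosol, and lactate dehydrogenase then turns pyruvate into lactate, which leaves the cell through monocarboxylate transporters. The pentose phosphate pathway branches off after the first phosphorylation of glucose and supplies NADPH, which macrophages use for the oxidative burst and for antioxidant defence, and sugar phosphates for nucleotide synthesis. Several steps have isoenzymes, which are related genes for the same reaction that differ in regulation and in the tissues that use them. The transcription factor subunit HIF-1 alpha is marked by prolyl hydroxylases when oxygen is present and is then handed to the proteasome by the Vhl protein, and many glycolytic genes are among its known targets in macrophages and other cells.

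Each gene table held 33044910, 36769402 and 36522216 expected counts, which are estimated numbers of reads, in libraries 1, 2 and 3. The 37 genes took 0.441%, 0.439% and 0.455% of them. Levels are given in TPM, the abundance per transcript length relative to all transcripts of the library. The authors quantified each library in 2 ways, and values are from the first, which includes the gene tables, unless the second is named. The share of TPM on protein-coding genes was 38.4%, 26.6% and 34.8%, and TPM were lowest in library 2 for 34 of the 37 genes (91.9%) and for 89.4% of the 9570 genes at 1 TPM or more in every library. A TPM difference between libraries is therefore read below only after scaling of the counts, while ratios of genes within a library do not depend on that share. The low TPM of library 2 belong to the first quantification. In the second most of the 37 genes were lowest in library 3, such as Aldoa at 96.04, 59.12 and 48.83 TPM. All 7 macrophage markers (Csf1r, Adgre1, Cd68, Itgam, Mertk, Fcgr1 and Lyz2) reached 1 TPM in every library, with a summed level of 6105 to 9257 TPM. Of 28 markers of other cell types, 8 had no count and 2 reached 1 TPM in every library, the platelet and macrophage chemokine gene Pf4 (212 to 243 TPM) and the neutrophil granule gene Ngp (2.58 to 7.25 TPM). Their summed level was 217.0 to 254.7 TPM, nearly all of it from Pf4, and the T and NK cell markers summed to at most 0.01 TPM. In such bulk RNA, fewer cells of a type and less RNA per cell cannot be told apart.

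RNA for the whole route from glucose to lactate was present. The mean levels of all 37 genes spanned more than 3 orders of magnitude on a log10 scale. The low end of this span was the oxygen-sensing gene Egln3 at 0.11 TPM, and the next lowest gene was Ldhb at 1.43 TPM. At 1 TPM or more in every library stood 36 of the 37 genes, with the prolyl hydroxylase gene Egln3 below it. At 10 TPM or more stood 21 genes and at 100 TPM or more 4. These counts hold for the first quantification only. Levels were lower in the second, where Gapdh, the highest gene, stood at 243.1, 107.1 and 91.64 TPM. There Pfkm, Ldhb, Slc16a1, Rpia, Pdk3 and Vhl also fell below 1 TPM in at least 1 library. Over the 37 genes the median of the mean levels was 16.4 TPM, beside 9.19 TPM over the 9570 genes at 1 TPM or more. By role, the medians were 70.3 TPM for glycolysis, 45.5 TPM for the pentose phosphate pathway and 8.71 TPM for the glucose transporter genes (role uptake). They were 5.90 TPM for the pyruvate dehydrogenase step, 4.65 TPM for oxygen sensing and 3.79 TPM for lactate formation and transport. The roles overlapped in level: Pfkm and Rpia, both enzyme genes, were among the lowest of the set, and Hif1a and Pfkfb3, a transcription factor and a regulator, stood above its median.

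**Figure D1:**
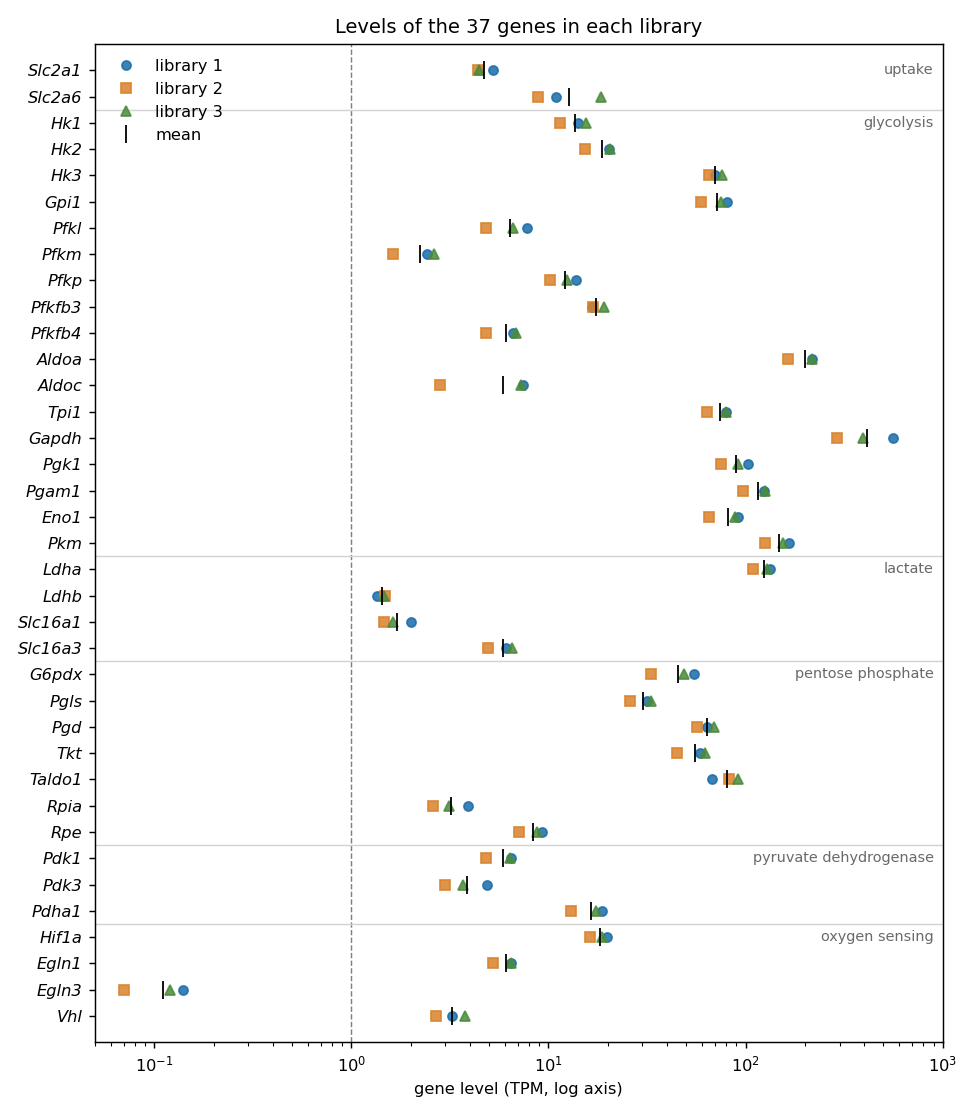
Level of each of the 37 genes in TPM of the first quantification (log axis), grouped by role. Symbols are the 3 libraries, the black bar is their mean, and the dashed line is 1 TPM. Gapdh and Aldoa lie farthest to the right, Egln3 lies left of the line, and library 2 is the lowest symbol for 34 of the 37 genes.

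Of the glucose transporter genes, Slc2a6 was above Slc2a1 in every library. Slc2a1 encodes the widely expressed facilitative transporter GLUT1, and Slc2a6 a transporter of the same family that is found on lysosomal membranes of macrophages. Slc2a1 stood at 5.26, 4.38 and 4.45 TPM in libraries 1, 2 and 3, a mean of 4.70 ± 0.489 (SD, n = 3). Slc2a6 stood at 10.87, 8.89 and 18.38 TPM, 12.7 ± 5.01 (SD, n = 3), with library 3 above the other libraries. The values of the genes did not overlap, and Slc2a6 held 71.6% ± 7.69 (SD, n = 3) of their sum. Within a library Slc2a6 was 2.58-fold higher on average, from 2.03-fold to 4.12-fold (log2 ratio 1.37 ± 0.58, n = 3).

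Hk3 was the main hexokinase gene. Hexokinases trap glucose in the cell by phosphorylating it, and Hk3 is the isoenzyme best known from myeloid cells. It stood at 69.98, 65.33 and 75.70 TPM, a mean of 70.3 ± 5.19 (SD, n = 3). Hk2, the inducible isoenzyme that docks on mitochondria, stood at 20.27, 15.38 and 20.49 TPM, and Hk1, the broadly expressed one, at 14.19, 11.38 and 15.51 TPM. Hk3 thus lay far above both in each library, with 68.6% ± 2.09 of the hexokinase sum of 103 TPM, beside 18.2% ± 1.36 for Hk2 and 13.3% ± 0.810 for Hk1 (SD, n = 3). The ratio of Hk3 to Hk1 was 5.17-fold (log2 2.37 ± 0.13, n = 3) and that of Hk3 to Hk2 3.78-fold (log2 1.92 ± 0.15, n = 3). Hk2 exceeded Hk1 by 1.37-fold (log2 0.45 ± 0.06, n = 3), but this order did not hold in the second quantification, where Hk2 was slightly the lower (log2 ratio -0.08). The quantifications differed in Hk2-202, a 594-base processed transcript annotated as noncoding, which covers none of the coding bases of Hk2-201. It held 6.74, 4.68 and 5.75 TPM in the first quantification and 0 TPM in each library in the second. On protein-coding transcripts alone, a comparison chosen after seeing the data, the log2 ratio of Hk2 to Hk1 was -0.07 in both quantifications.

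At the next steps RNA of Gpi1 and of the phosphofructokinase genes was present, the latter led by Pfkp. All levels and shares here are of RNA, and no enzyme amount or activity was measured. Gpi1, the isomerase that makes fructose phosphate, stood at 80.88, 59.65 and 75.42 TPM. Phosphofructokinase is the committed step of glycolysis, and its genes are named after liver (Pfkl), muscle (Pfkm) and platelets (Pfkp). Pfkp was highest at 13.82, 10.18 and 12.41 TPM, Pfkl followed at 7.75, 4.84 and 6.63 TPM and Pfkm at 2.43, 1.63 and 2.64 TPM. The ranges of the 3 genes did not overlap, and their shares of the sum were 58.7% ± 2.16, 30.65% ± 1.61 and 10.7% ± 1.29 (SD, n = 3). Pfkp exceeded Pfkl by 1.91-fold (log2 0.94 ± 0.12, n = 3), and Pfkl exceeded Pfkm by 2.87-fold (log2 1.52 ± 0.18, n = 3). The summed level of the 3 genes was 20.8 ± 3.76 TPM, less than the 103 ± 9.91 TPM of the hexokinases before them and the 206 ± 33.0 TPM of the aldolases after them.

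The bifunctional enzymes Pfkfb3 and Pfkfb4 make and remove the sugar bisphosphate that activates phosphofructokinase. Pfkfb3, whose enzyme strongly favours making it, stood at 16.55, 16.74 and 19.10 TPM, and Pfkfb4 at 6.61, 4.80 and 6.83 TPM. Pfkfb3 was the higher in every library, with 74.3% ± 3.17 of the sum and a ratio of 2.90-fold (log2 1.53 ± 0.24, n = 3).

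RNA for aldolase, which splits the sugar into its 3-carbon parts, was nearly all Aldoa among the 2 listed genes. Aldoa stood at 217.01, 164.85 and 218.00 TPM, and Aldoc, the form best known from brain, at 7.44, 2.83 and 7.27 TPM. Aldoc in library 2 was below the other libraries by more than the fall of most genes there, and it is taken up again below. Aldoa held 97.3% ± 0.915 of the sum, and the ratio ranged from 29.1-fold to 58.0-fold (log2 5.21 ± 0.56, n = 3). A second gene identifier that also carries the name Aldoa had 0 to 3 counts and was left out.

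From the triose phosphates to pyruvate each step was led by a gene at a high level. Tpi1, the triose isomerase, stood at 79.76, 63.48 and 79.79 TPM. Gapdh, which makes the first NADH of the route, was the highest of the 37 genes at 561.78, 289.88 and 394.74 TPM, and at 416 ± 137 TPM (SD, n = 3) also the most spread in absolute terms. The kinase gene Pgk1 stood at 102.47, 75.32 and 91.83 TPM. Each of these genes was lowest in library 2 in the first quantification. Pgam1, the phosphoglycerate mutase, stood at 124.50, 97.29 and 125.93 TPM. The enolase gene Eno1 stood at 91.83, 65.07 and 88.90 TPM. Pkm, the pyruvate kinase gene, stood at 166.30, 125.61 and 154.16 TPM. Gapdh reached the 98.8th percentile of the genes at 1 TPM or more, Aldoa the 97.0th and Pkm the 96.0th, while the lowest of the glycolytic genes, Pfkm, reached the 10.3rd.

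Some of these levels rest on sequence that the gene shares with others. For each gene the 31-base words of its most abundant annotated transcript were compared with all transcripts of other genes, on either strand. Of the Gapdh transcript 84.1% of the words also occurred elsewhere, with the closest gene, Gm7336, at 8.37 TPM. All 329 genes that shared any of its words summed to 32.3 TPM. For Gpi1 37.3% was shared (closest Gm1840, at 0.27 TPM), and the 782 genes sharing any word summed to 7992 TPM. For Eno1 the share was 77.2% (Eno1b, at 1.30 TPM), for Pgk1 68.3% (Pgk1-rs7, at 0.02 TPM) and for Pkm 50.9% (closest Gm6560, at 0.32 TPM). Over 10% was shared in 14 of the 37 genes, and how the reads of shared sequence were divided is an estimate of the quantification. These 14 include genes that share words with a neighbour on the opposite strand, such as Rpe with Kansl1l (19.8%) and Pdha1 with Map3k15 (18.4%). The exons of 13 genes overlapped a gene on the opposite strand, by over 10% of their bases in Gpi1, G6pdx, Rpe and Pdha1. The strand setting of the quantification is not given in the sources used here, so the values of G6pdx beside Ikbkg (9.63 TPM) and of Rpe beside Kansl1l (4.21 TPM) are uncertain by what these neighbours could add.

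Pkm RNA was mostly of the M2 form. The gene (chr9:59656368-59679375, mm10, plus strand) has a pair of mutually exclusive exons, of which the first gives the M1 enzyme known from muscle and brain and the second the M2 enzyme known from proliferating and immune cells, whose activity is open to regulation. These exons are shown because they define the forms. The shares below are of whole annotated transcripts, which share 8 of 11 exons and also differ in the first exon and in the length of the last (462 bases in Pkm-202 and 648 in Pkm-201), so they rest on reads there too. In the GENCODE M21 transcripts both are exon 9, the M1 exon at chr9:59675029-59675195 in Pkm-202 and the M2 exon at chr9:59675568-59675734 in Pkm-201, each in no other transcript. They are 167 bases long, identical at 103 aligned positions (61.7%), and the 64 positions that differ are in capitals, 5′ to 3′.
M1 exon: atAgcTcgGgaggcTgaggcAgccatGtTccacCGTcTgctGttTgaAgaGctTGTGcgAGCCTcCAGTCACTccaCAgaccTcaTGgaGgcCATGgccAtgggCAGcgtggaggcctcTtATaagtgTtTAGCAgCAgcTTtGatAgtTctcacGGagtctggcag
M2 exon: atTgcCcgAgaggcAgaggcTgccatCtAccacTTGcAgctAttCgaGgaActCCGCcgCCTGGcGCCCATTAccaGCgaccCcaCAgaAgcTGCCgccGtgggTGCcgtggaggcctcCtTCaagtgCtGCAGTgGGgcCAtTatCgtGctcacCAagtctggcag

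The M2 transcript held 92.6%, 86.4% and 86.9% of Pkm TPM in libraries 1, 2 and 3, a mean of 88.6% ± 3.46 (SD, n = 3). The M1 transcript held 6.48%, 12.8% and 12.4%, a mean of 10.6% ± 3.56. M2 lay far above M1 in every library, 14.3-fold, 6.73-fold and 6.99-fold, and library 1 stood apart from the others with the lower M1 share. In the second quantification M2 held 91.8%, 85.4% and 85.8% and M1 7.02%, 12.3% and 13.0%, so the order of the libraries in M2 was the same.

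Lactate dehydrogenase RNA was nearly all Ldha. Ldha, whose subunit favours turning pyruvate into lactate, stood at 133.66, 108.79 and 128.26 TPM. Ldhb, whose subunit is best known from heart and favours the reverse reaction, stood at 1.35, 1.48 and 1.46 TPM, near the floor of 1 TPM. The ratio was 85.6-fold, from 73.0-fold to 98.3-fold (log2 6.42 ± 0.22, n = 3), the largest of the 13 isoenzyme ratios computed. Of the listed genes of transporters that carry lactate across the plasma membrane, Slc16a3, which encodes the exporter MCT4, stood at 6.12, 4.96 and 6.56 TPM. Slc16a1, which encodes MCT1, stood at 2.01, 1.46 and 1.62 TPM. Slc16a3 was the higher in every library by 3.46-fold (log2 1.79 ± 0.21, n = 3). Both were more than an order of magnitude below Ldha.

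**Figure D2:**
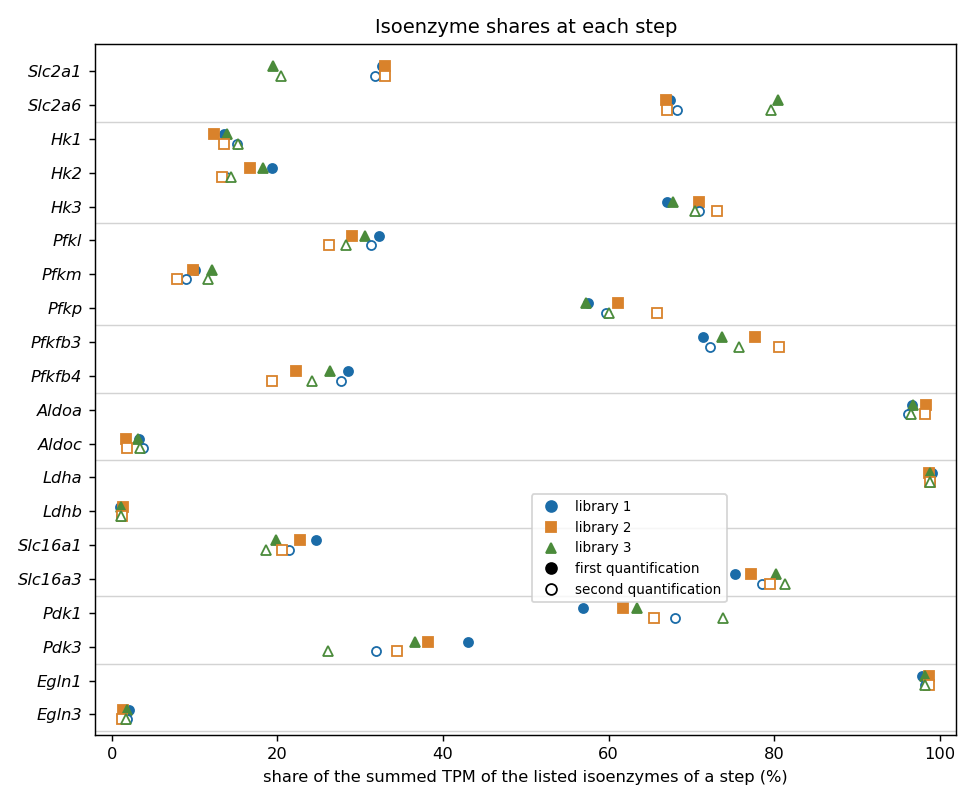
Share of each listed gene in the summed TPM of its step (%), with each step set apart by a grey line. Filled symbols are the first quantification in the 3 libraries and open symbols the second. Hk3, Pfkp, Pfkfb3, Aldoa, Ldha, Slc16a3, Pdk1 and Egln1 lead the listed genes of their steps in every library in both, over all transcripts. Slc16a7 and Egln2, which stood above Slc16a3 and Egln1, are not among the listed genes. Hk1 and Hk2 change order between the quantifications.

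The pentose phosphate genes divided into 5 at high and 2 at low levels. G6pdx, the dehydrogenase that commits sugar to the pathway and makes its first NADPH, stood at 54.59, 33.14 and 48.89 TPM. Pgls, the lactonase that follows it, stood at 31.68, 26.03 and 33.02 TPM, and Pgd, which makes the second NADPH, at 64.01, 56.78 and 69.52 TPM. In the non-oxidative branch, which exchanges carbon with glycolysis, the transketolase gene Tkt stood at 58.55, 44.85 and 62.04 TPM. The transaldolase gene Taldo1 stood at 67.74, 82.13 and 91.64 TPM and was, unlike most genes, lowest in library 1. In the second quantification it was highest there, at 29.82, 27.38 and 19.91 TPM. Rpia and Rpe, the isomerase and epimerase of the pentose phosphates, were lower at 3.91, 2.58 and 3.13 TPM and at 9.24, 7.06 and 8.74 TPM. No library placed Rpia or Rpe above any of the other 5 genes.

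At the entry of pyruvate into mitochondria, Pdha1 encodes a catalytic subunit of pyruvate dehydrogenase, and the kinases Pdk1 and Pdk3 switch that complex off. Pdha1 stood at 18.61, 13.05 and 17.42 TPM. Pdk1 stood at 6.47, 4.81 and 6.41 TPM and Pdk3 at 4.89, 2.98 and 3.70 TPM. Pdk1 was the higher kinase gene in every library, but by 1.55-fold only (log2 0.63 ± 0.20, n = 3), and its transcripts were divided differently by the quantifications: protein-coding transcripts held 96.0% ± 2.11 of Pdk1 TPM in the first and 49.1% ± 13.3 in the second (SD, n = 3). On protein-coding transcripts of the second quantification alone, a comparison chosen after seeing the data, the log2 ratio was 0.11 and Pdk3 led in library 1, with 53.7% of the sum against 46.3% for Pdk1.

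Among the oxygen-sensing genes Hif1a was the highest and Egln3 the lowest. Hif1a stood at 19.86, 16.26 and 18.75 TPM, a mean of 18.3 ± 1.84 (SD, n = 3). Egln1, which encodes the main oxygen-dependent prolyl hydroxylase PHD2, stood at 6.49, 5.24 and 6.46 TPM, and Vhl, the substrate receptor of the ubiquitin ligase that takes up hydroxylated HIF-1 alpha, at 3.23, 2.69 and 3.77 TPM. The 3 genes did not overlap in level. Egln3, which encodes PHD3 and is itself known as a HIF target, stood at 0.14, 0.07 and 0.12 TPM from 15, 11 and 15 counts, above the limit of 3 counts that a count of 0 allows. Egln1 exceeded it by 52.1-fold (log2 5.70 ± 0.31, n = 3).

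All 13 isoenzyme ratios had the same sign in 3 of 3 libraries. In a two-sided exact sign-flip permutation test over the 3 libraries each gave p = 0.25, and 0.25 after Benjamini-Hochberg adjustment over the 13 pairs, which is the smallest p that 3 libraries allow. The order of all 37 mean levels was less fixed: of the 36 pairs of neighbours in that order, 19 had the same order in every library. The highest by mean level, Gapdh, Aldoa, Pkm, Ldha, Pgam1, Pgk1 and Eno1, kept their order among themselves in every library. Genes of lower mean level could still stand between them. Taldo1, at 82.13 TPM in library 2, was above Pgk1 (75.32 TPM) and Eno1 (65.07 TPM) there. The other 17 pairs of neighbours changed order between libraries and did not differ beyond their spread. Among the high genes these were Eno1 and Taldo1, Taldo1 and Tpi1, Tpi1 and Gpi1, and Gpi1 and Hk3, with mean levels from 70.3 to 81.9 TPM. In the middle they were Hk2 and Hif1a, Hif1a and Pfkfb3, Pfkfb3 and Pdha1, Hk1 and Slc2a6, and Slc2a6 and Pfkp. Among the low genes they were Pfkl and Pfkfb4, Pfkfb4 and Egln1, Pdk1 and Slc16a3, Slc16a3 and Aldoc, Aldoc and Slc2a1, Pdk3 and Vhl, Vhl and Rpia, and Slc16a1 and Ldhb. This holds for neighbours only: some genes farther apart in the order, such as Pdk3 and Rpia or Hk2 and Pdha1, had the same order in every library.

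Differences between libraries were tested on counts with edgeR, as the excess of each gene's spread over that of genes of its level, after TMM scaling. Of 12231 genes tested 203 were called at an adjusted p under 0.05 (1.66%), and 785 had an unadjusted p under 0.05. All 37 genes passed the filter on low counts, 1 of them was called, and 3 had an unadjusted p under 0.05. The called gene was Aldoc, at log2 CPM (the log2 of counts scaled to library size) of 4.21, 3.28 and 4.28 in libraries 1, 2 and 3, with an edgeR adjusted p of 0.0318. It was low in library 2 alone, and 1 call in 37 genes is near the share called over all genes. The call was lost without the filter on low counts (edgeR adjusted p = 0.0566), with a common dispersion (edgeR adjusted p = 0.0884) and with DESeq2's dispersion trend (adjusted p = 0.0866). It was also lost without library 2 (edgeR adjusted p = 1.00) or library 3 (0.232) and kept without library 1 (0.00798). Just outside the threshold was Slc2a6, at log2 CPM of 4.77, 4.97 and 5.56 and highest in library 3 (edgeR adjusted p = 0.0756). Taldo1 followed at log2 CPM of 6.35, 7.09 and 6.94, lowest in library 1 (edgeR adjusted p = 0.189).

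Many of the other genes were close between libraries. The median range of log2 CPM over the 3 libraries was 0.19 for the 37 genes, beside 0.28 for all genes tested. The part of expression level in this difference was not tested. The narrowest ranges were 0.05 for Pdha1, 0.06 for Eno1, 0.09 for Aldoa, Pkm and Rpe, and 0.10 for Pgk1. Beside Aldoc, Slc2a6 and Taldo1, the widest were 0.53 for Egln3, 0.43 for Ldhb, 0.41 for Slc2a1, 0.40 for Pfkfb3 and 0.35 for Gapdh. These and some further genes lay above the median of all genes tested. The 37 genes were lowest in library 1 in 54.0% of cases (20 genes), beside 38.3% of all genes tested, and highest in library 2 in 48.6% (18 genes), beside 31.2%. Their median deviation from the gene's mean was small in each library, -0.06, 0.04 and 0.03 on the log2 scale. Of the 17 glycolysis genes 9 were highest in library 3 (52.9%), beside 32.0% of all genes tested. Library 1 was also the shallowest, and the part of depth in this pattern was not tested.

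**Figure D3:**
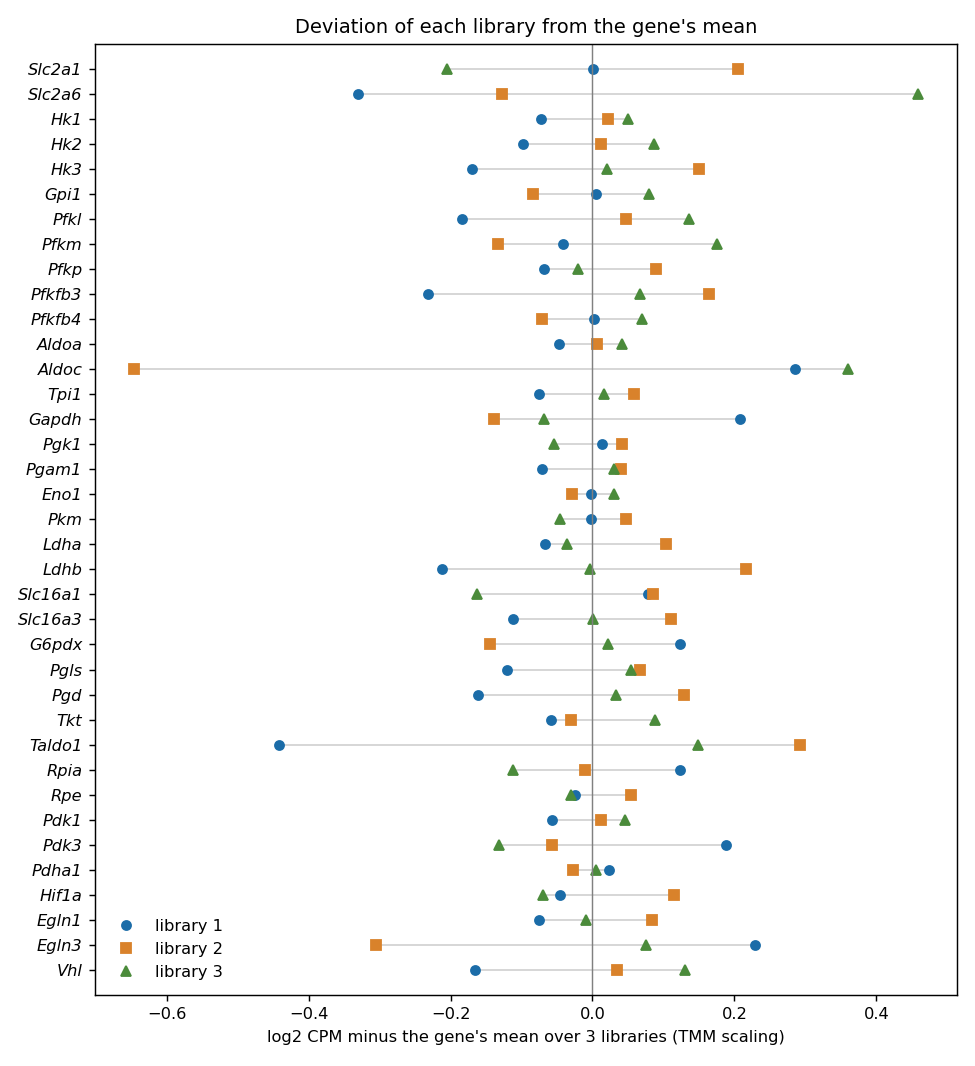
Deviation of log2 CPM in each library from the mean of the gene (TMM scaling), for the 37 genes. Symbols are the 3 libraries, joined by a grey line. Aldoc in library 2, Slc2a6 in library 3 and Taldo1 in library 1 lie farthest from 0, and most other genes lie within 0.2 of it.

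The transcripts behind the gene levels were mainly protein-coding. The share of a gene's TPM on protein-coding transcripts had a median of 99.3% over the 37 genes in the first quantification and 98.7% in the second, and it was 90% or more in 28 and 27 genes. It was under 50% for Tkt in both, and in the second also for Pdk1. Its processed transcript Tkt-209, annotated as noncoding, held 72.7%, 79.9% and 75.3% of Tkt TPM in the first quantification and 82.1% ± 2.54 on average in the second. Tkt-209 shares 12 of 14 exons with the coding Tkt-201 and covers 94.3% of its coding bases, and it differs in the first exon and in its last exon of 288 bases, beside 1384 bases in Tkt-201. Tkt RNA was thus mostly assigned to a form without the long last exon.

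For Hk1 and Hif1a the assignment was between coding forms with different first exons. Hif1a-201 held 67.0%, 78.1% and 75.2% of Hif1a TPM and 76.1% ± 5.71 on average in the second quantification, and the rest was nearly all Hif1a-202, which shares 13 of 15 exons with it. Hk1-202 held 62.5% ± 9.18 and Hk1-201 32.0% ± 7.95 in the first quantification, but 41.3% ± 3.61 and 43.1% ± 6.93 in the second, so which of them led was not settled. Hk3 was spread over several transcripts, with Hk3-201 at 62.8%, 25.9% and 52.9% in the first quantification and 71.2% ± 7.10 in the second. In library 2 of the first quantification Hk3-208 exceeded Hk3-201.

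Nonsense-mediated decay is the pathway that destroys RNA with an early stop codon. Transcripts annotated for it held 31.7% ± 10.7 of Gpi1 TPM in the first quantification and 37.2% ± 13.6 in the second. Most of this was on the 933-base Gpi1-207. Gpi1 was not alone in this. Such transcripts held 14.3% ± 1.83 of Slc2a1 TPM in the first quantification and 36.1% ± 5.01 in the second. For Hk3 they held 15.6% ± 6.80 in the first and 3.43% ± 0.304 in the second. A retained-intron transcript of Gapdh, Gapdh-206, held 12.2% of Gapdh TPM in library 1 of the first quantification (4.82% in the second) and none in libraries 2 and 3. Gapdh was highest in library 1 in TPM and in log2 CPM (9.55, beside 9.20 and 9.27), a difference that edgeR did not call (adjusted p = 1.00). The part of this transcript in the Gapdh level of library 1 was not tested.

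**Figure D4:**
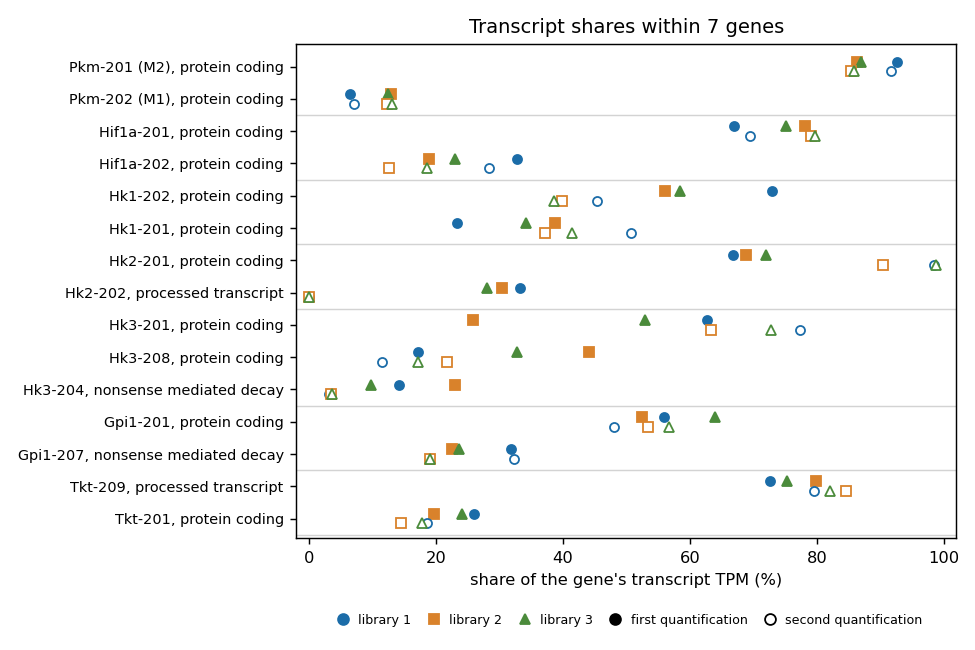
Share of single transcripts in the summed transcript TPM of their gene (%), for 7 genes. Filled symbols are the first quantification in the 3 libraries and open symbols the second. Pkm-201 (M2) and Tkt-209 hold most of their genes in both, Hk2-202 is near 30% in the first and at 0% in the second, and Hk1-201 and Hk1-202 change order.

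Isoenzymes outside the 37 genes were mostly low or without counts. Of 27 such genes of the same steps, 9 reached 1 TPM in every library and 9 had no count in any library. Slc16a7, which encodes the monocarboxylate transporter MCT2, stood at 27.30, 17.45 and 25.29 TPM, above Slc16a3 and Slc16a1 in every library. Egln2, which encodes the prolyl hydroxylase PHD1, stood at 10.78, 10.41 and 12.85 TPM, above Egln1 in every library. With these genes counted, neither Slc16a3 nor Egln1 was the highest gene of its step. The other 7 stood lower than Slc16a7 and Egln2. H6pd, the counterpart of G6pdx in the endoplasmic reticulum, stood at 6.12 ± 0.696 TPM, Slc2a8 at 6.05 ± 1.28 and Adpgk at 5.23 ± 1.13. Pfkfb2 stood at 3.81 ± 0.528, Pdk2 at 3.32 ± 0.775, Eno2 at 2.76 ± 0.221 and Slc2a3 at 1.54 ± 0.669 (SD, n = 3). Slc2a8, at 7.16, 4.65 and 6.35 TPM, was nevertheless above Slc2a1 in every library. By edgeR 13 of the 27 could be tested between libraries and 0 were called, with 1 at an unadjusted p under 0.05.

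Of 33 other genes of these pathways 26 reached 1 TPM in every library, with a median of 6.24 TPM over all 33. The highest were Mpc1, a subunit of the mitochondrial pyruvate carrier (114.95, 77.21 and 102.50 TPM), Bsg, the chaperone of the monocarboxylate transporters (111.43, 81.65 and 94.51 TPM), and Elob and Rbx1, which belong to the Vhl ubiquitin ligase (85.1 ± 11.5 and 41.6 ± 9.04 TPM). Vhl itself was below Elob and Rbx1 in every library. Of 20 known HIF target genes outside the 37, 16 reached 1 TPM in every library, with a median of 7.19 TPM. The highest were the transferrin receptor gene Tfrc (267 ± 49.2 TPM), the heme oxygenase gene Hmox1 (130 ± 11.9 TPM), the growth factor gene Vegfa (103 ± 22.7 TPM) and the mitophagy receptor gene Bnip3l (50.4 ± 20.7 TPM), which also have other known regulators. By edgeR 0 of the 27 other pathway genes tested and 0 of the 18 HIF target genes tested were called between libraries, with 1 and 3 at an unadjusted p under 0.05.

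The promoters of the 37 genes were searched for ACGTG, a spelling of the core of hypoxia response elements, to which HIF-1 is known to bind. The windows were 300 bases, from 250 before to 50 after a RefSeq start site (GRCm38.p6), and all 37 genes had 1 or more, 51 windows in all. On either strand ACGTG occurred in 23 of the 51 windows (45.1%, in 20 genes), beside 19.6% of 32851 windows of all genes and 26.7% of 9490 windows of genes at 1 TPM or more. The related letters GCGTG occurred in 58.8% of the windows, beside 32.4% of all windows and 51.6% of those of genes at 1 TPM or more. CACGTG, the E-box bound by other factors, which holds ACGTG on both strands, occurred in 9.80%, beside 7.15% and 10.8%. The 20 genes with ACGTG had mean levels of 0.11 to 416 TPM with a median of 17.9 TPM, and the 17 genes without it 1.43 to 81.9 TPM with a median of 12.7 TPM, so the ranges overlapped.

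The sites nearest to a start site are shown for the 5 highest genes that had ACGTG wholly upstream of it, with 12 bases on each side. Capitals mark the letters, read as CACGT where ACGTG lies on the other strand, and each line runs 5′ to 3′ on the strand of the gene. The sites lie at -202 (Aldoa, chr7:126799364-126799392, minus strand), -75 (Pkm, chr9:59657140-59657168, plus), -34 (Ldha, chr7:46845758-46845786, plus), -114 (Pgam1, chr19:41911745-41911773, plus) and -131 (Pgk1, chrX:106186957-106186985, plus) from the RefSeq start.
Aldoa: tgtggctcgagtCACGTcctagcggggcg
Pkm: ctccgatccggtCACGTccgcgccgcagc
Ldha: cgtgggttcccgCACGTccgctgggctcc
Pgam1: cgctccttgcttACGTGcgctccgtgact
Pgk1: aaatggaagtagCACGTctcactagtctc
These matches are letters in a window. No binding was measured, and nothing about HIF-1 at these genes is read from them.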

How the data were processed

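Each library came with gene and transcript tables of a first quantification and a transcript table of a second. The deposited expected counts (estimated reads per gene or transcript) and the deposited TPM were made by the authors for every library separately, on mm10 and GENCODE M21 per the labels and README notes. Tools, versions and strand setting: not given in the sources used here. Some transcript TPM are divided between forms that share most of their sequence.

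Levels are the deposited TPM, and log2 ratios use a pseudocount of 0.01. Library differences were tested with edgeR 4.0.16 (R 4.3.3) on rounded expected counts: filterByExpr, TMM scaling, trended dispersion, an intercept, and the residual deviance of each gene against chi-square, adjusted by Benjamini-Hochberg over all genes at a threshold of 0.05. With 1 group no contrast between groups exists. Log2 CPM carry a prior count of 0.5. Tested on simulated counts of 12231 genes, this step found 31 of 100 genes with a 2-fold shift in 1 library. It found 100 of 100 with a 4-fold shift and called 0 of 11914 genes without a shift. Every simulated gene had the same dispersion, and only genes above a count limit were shifted. The step was thus not tested on genes that differ in dispersion, or on shifts of genes with few counts such as Egln3. A count of 0 allows up to 3 counts, which is 0.0908, 0.0816 and 0.0821 CPM, for counting error only. Tables and plots were made in Python 3.11.15 (pandas 2.3.3, numpy 2.4.6, matplotlib 3.10.9), and DESeq2 1.42.0 served as an alternative, beside other filters, dispersions, pseudocounts, the second quantification and leaving out libraries.

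All 37 genes are described. Other isoenzymes at 1 TPM or more in every library are named, with at most 4 others, and of other pathway genes and HIF targets the 4 highest. The genes and lists were chosen with earlier results of these data known. Transcript sequences are from GENCODE M21 and promoter windows from RefSeq.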

Additional observations from a re-analysis of the deposited data

How the results depend on the processing

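Aldoc was the call of the edgeR test, and with DESeq2 size factors 1 of the 37 genes was called too. The count fell to 0 without the filter on low counts, with a common dispersion and with DESeq2's dispersion trend, and was 0 to 1 with 1 library left out (1 without library 1, 0 without library 2 and 0 without library 3). The edgeR adjusted p of Aldoc was 0.0306 with DESeq2 size factors, 0.0566, 0.0884 and 0.0866 under those other settings, and 0.00798 to 1.00 with 1 library left out; the tests differ in the genes tested, the assumed spread or the libraries used. Of the 13 isoenzyme ratios, 12 kept the sign of their mean in every setting that gave a value (Egln1 over Egln3 has none where both genes must reach 1 TPM). On protein-coding transcripts of the second quantification Pdk1 over Pdk3 fell to 0.11, with the sign turned in library 1 (exact permutation p = 0.5). Hk2 over Hk1 turned from 0.45 to -0.078 in the second quantification and to -0.067 and -0.068 on protein-coding transcripts of the first and the second, which was chosen after seeing the data. The Pkm M2 share was 86.6% to 89.8% with 1 library left out and 87.7% in the second quantification. All 37 levels moved by more than 1 SD when TPM were rescaled to protein-coding genes or taken from the second quantification, where the largest change of rank among the 37 was 6 places, for Hk2. Of the 20 shares of a step, 7 moved by more than 1 SD in the second quantification. No paired analysis was possible because the study has 1 group. Depth limits Egln3 most, with 11 to 15 counts per library.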
